A study of Mus musculus with 14 samples.

Results

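The variable (V) and joining (J) segments of the T cell receptor genes were examined in cultured mouse CD8 T cells. The members are the rows of a gene count table whose symbols begin with Trav or Traj (alpha chain), Trbv or Trbj (beta chain), Trgv or Trgj (gamma chain), and Trdv or Trdj (delta chain). Such rows numbered 258 of the 55486 genes in the table, and the 92 with a summed count of at least 10 over the 14 libraries are described, with 41074 counts between them. The other 166 rows held 373 counts in all, and 66 of them were at 0. The smallest summed count kept was 10, in 3 segments, and the largest left out was 9, in 4 segments. By class, 47 of 130 Trav rows, 6 of 60 Traj, 12 of 35 Trbv, 14 of 14 Trbj, 4 of 7 Trgv, 1 of 4 Trgj, 6 of 6 Trdv and 2 of 2 Trdj rows reached that count. The table annotates 6 of the 92 as pseudogenes.

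Polyadenylated RNA was sequenced from CD8 T cells of mice that all carried 1 copy of the OT-I receptor transgene. The cells were activated through CD3 and CD28 and grown for 8 days. The 3 libraries labelled KO came from mice heterozygous for CreERT2, a Cre recombinase that works only in the presence of tamoxifen, and homozygous for a floxed allele of Dot1l, the gene of the histone H3 lysine methyltransferase DOT1L. The 3 libraries labelled WT came from mice heterozygous for CreERT2 with wild-type Dot1l. Both received 4-hydroxytamoxifen at 10 nM on day 0. The 4 DMSO and 4 EPZ libraries came from mice with neither Cre nor the floxed allele, and every 2 days received 0.1% DMSO or EPZ-5676, an inhibitor of DOT1L. The dose of the inhibitor is 10 mM in one label and 10 uM in another. Library names give each DMSO library and the EPZ library of the same number the same animal, whereas the KO and WT libraries come from 6 other animals. Neither the promoter that drives CreERT2 nor the age of the mice is given in the sources used here.

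During thymic development, RAG recombinase joins 1 V and 1 J segment, with a D segment between them in beta and delta chains, into the exon that encodes the antigen-binding part of a receptor chain. Each mature T cell clone therefore carries its own V and J pair, and the J segment is spliced to a constant gene (Trac, Trbc1, Trbc2, Trgc1 to Trgc4 or Trdc). Delta segments lie inside the alpha locus, and a V segment with dv in its name can join to either. Unjoined V segments can also be transcribed at a low level from their own promoters. OT-I is a receptor for an ovalbumin peptide on the class I molecule H-2Kb. It joins a V alpha segment of the Trav14 family to Traj33 and a V beta segment of the Trbv12 family to Trbj2-7. In an OT-I mouse most receptors therefore use those segments, while some cells also carry chains joined from their own loci, more often alpha chains.

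Segments of the families used by the OT-I receptor are shown because all mice carried its transgene, each V segment with another reported segment of its family. The last 300 coding bases of each V segment and each whole J segment are given, from the mm10 build in GENCODE release M21, 5′ to 3′ on the plus strand. Capitals in the V segments mark bases that differ within the pair. Capitals in the J segments mark the codons of the Phe/Trp-Gly-X-Gly motif of J segments, searched on the segment's own strand as codons for Phe or Trp, Gly, any residue and Gly, which 45 of 60 Traj and 11 of 14 Trbj rows hold.
Trbv12-1: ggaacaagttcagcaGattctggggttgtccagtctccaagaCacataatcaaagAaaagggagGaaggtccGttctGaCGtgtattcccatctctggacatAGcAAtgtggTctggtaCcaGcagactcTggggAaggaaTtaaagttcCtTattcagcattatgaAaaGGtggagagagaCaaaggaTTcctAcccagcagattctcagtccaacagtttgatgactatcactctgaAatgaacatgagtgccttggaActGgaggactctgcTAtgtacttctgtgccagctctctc
Trbv12-2: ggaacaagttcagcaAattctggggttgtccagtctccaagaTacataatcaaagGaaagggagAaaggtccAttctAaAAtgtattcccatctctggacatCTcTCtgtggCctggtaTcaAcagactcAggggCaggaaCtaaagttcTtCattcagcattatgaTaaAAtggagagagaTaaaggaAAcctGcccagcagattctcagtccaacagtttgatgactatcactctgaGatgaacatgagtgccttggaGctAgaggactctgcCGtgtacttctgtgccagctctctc
Trav14-1: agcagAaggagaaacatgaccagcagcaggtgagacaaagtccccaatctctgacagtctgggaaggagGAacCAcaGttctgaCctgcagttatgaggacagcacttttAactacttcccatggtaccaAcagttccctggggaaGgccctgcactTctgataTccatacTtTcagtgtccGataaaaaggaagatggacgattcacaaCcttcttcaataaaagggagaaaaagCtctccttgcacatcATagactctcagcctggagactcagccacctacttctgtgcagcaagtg
Trav14-2: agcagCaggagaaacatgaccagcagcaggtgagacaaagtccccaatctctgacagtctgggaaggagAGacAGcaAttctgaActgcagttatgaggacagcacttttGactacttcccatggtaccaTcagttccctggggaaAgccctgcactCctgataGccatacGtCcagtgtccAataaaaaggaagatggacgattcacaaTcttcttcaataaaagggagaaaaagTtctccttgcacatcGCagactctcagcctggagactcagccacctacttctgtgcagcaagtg
Traj33: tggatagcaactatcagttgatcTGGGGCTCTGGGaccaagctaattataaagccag
Trbj2-7: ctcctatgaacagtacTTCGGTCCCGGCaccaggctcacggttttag
Trbv12-1 lies at chr6:41113550-41114067 and Trbv12-2 at chr6:41118851-41119364. Their 372 coding bases differed at 44 positions, an identity of 88.2%, and 32 of these lie in the stretch shown. Trav14-1 lies at chr14:53554022-53554558 and Trav14-2 at chr14:53640701-53641225. Over 364 coding bases they differed at 22 positions, an identity of 94.0%, with 19 of these in the stretch shown. Of all windows of 50 bases in the Trbv12-1 transcript, 100% occurred in no other annotated mouse transcript, and for Trav14-1 the share was 95.1%. Traj33 lies at chr14:54185358-54185414 and Trbj2-7 at chr6:41543810-41543856. They have 57 and 47 bases.

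Totals ran from 5643724 to 20586093 counts per library. Segments took 0.01038% to 0.01077% of the counts in libraries labelled KO and 0.02014% to 0.0213% in those labelled WT, against 0.01869% to 0.0236% under EPZ and 0.02836% to 0.03314% under DMSO. The sex read from Xist and Ddx3y went against the label in 4 of the 6 KO and WT libraries (KO 2, KO 3, WT 2 and WT 3) and matched in the 8 DMSO and EPZ libraries. Dot1l was higher in the 3 libraries labelled KO (188.9 to 218.4 CPM, the counts scaled to 1000000 per library) than in the 3 labelled WT (127.8 to 135.4 CPM). That count covers the whole gene, so it does not check the deletion. KO and WT are therefore the labels' words below. The 9 listed CD8 T cell markers had a summed level of 2394 to 2438 CPM (KO), 3839 to 4217 CPM (WT), 3074 to 3409 CPM (EPZ) and 4288 to 4693 CPM (DMSO). Besides CD8 chains the list holds Cd3d, Cd3e, Cd3g, Trac, Trbc1 and Trbc2, among others, which are not particular to CD8 T cells. Cd3e averaged 582 CPM in libraries labelled KO, 523 in WT, 547 in EPZ and 607 in DMSO. Cd8a, the coreceptor chain that defines the lineage, averaged 115 CPM in libraries labelled KO, 705 in WT, 398 in EPZ and 834 in DMSO.

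The beta V class was almost entirely Trbv12-1, the V segment family of the OT-I beta chain. It held 29024 of 29480 Trbv counts, and between 96.3% and 99.4% of them in every library. Divided by exon length and averaged over the libraries, its level was 391 CPM per kb, near that of the constant gene Trbc1 (390 CPM per kb) and below Trbc2 (581 CPM per kb). The other reported Trbv12 segment, Trbv12-2, held 28 counts over all 14 libraries.

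Trbv12-1 stood at 68.6, 71.3 and 72.4 CPM in the libraries labelled KO and at 153, 148 and 149 CPM in those labelled WT. EPZ libraries had 132, 147, 158 and 124 CPM, and the DMSO libraries of the same animals 212, 253, 227 and 211 CPM. All KO libraries were below all WT libraries and all EPZ libraries below all DMSO libraries, and in each of the 4 animals the EPZ culture was the lower. Means were 70.8 ± 1.92 CPM (SD, n = 3) against 150.1 ± 2.64 (SD, n = 3), and 141 ± 15.3 (SD, n = 4) against 226 ± 19.7 (SD, n = 4). The log2 fold change was -1.07 ± 0.060 (SE) for KO against WT, 2.11-fold lower, with an adjusted p of 2.98e-08 in edgeR's quasi-likelihood test. For EPZ against DMSO it was -0.68 ± 0.085 (SE), 1.60-fold lower, with an edgeR adjusted p of 3.93e-04. In bulk RNA, fewer cells that carry a segment and less RNA per cell cannot be told apart.

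**Figure D1:**
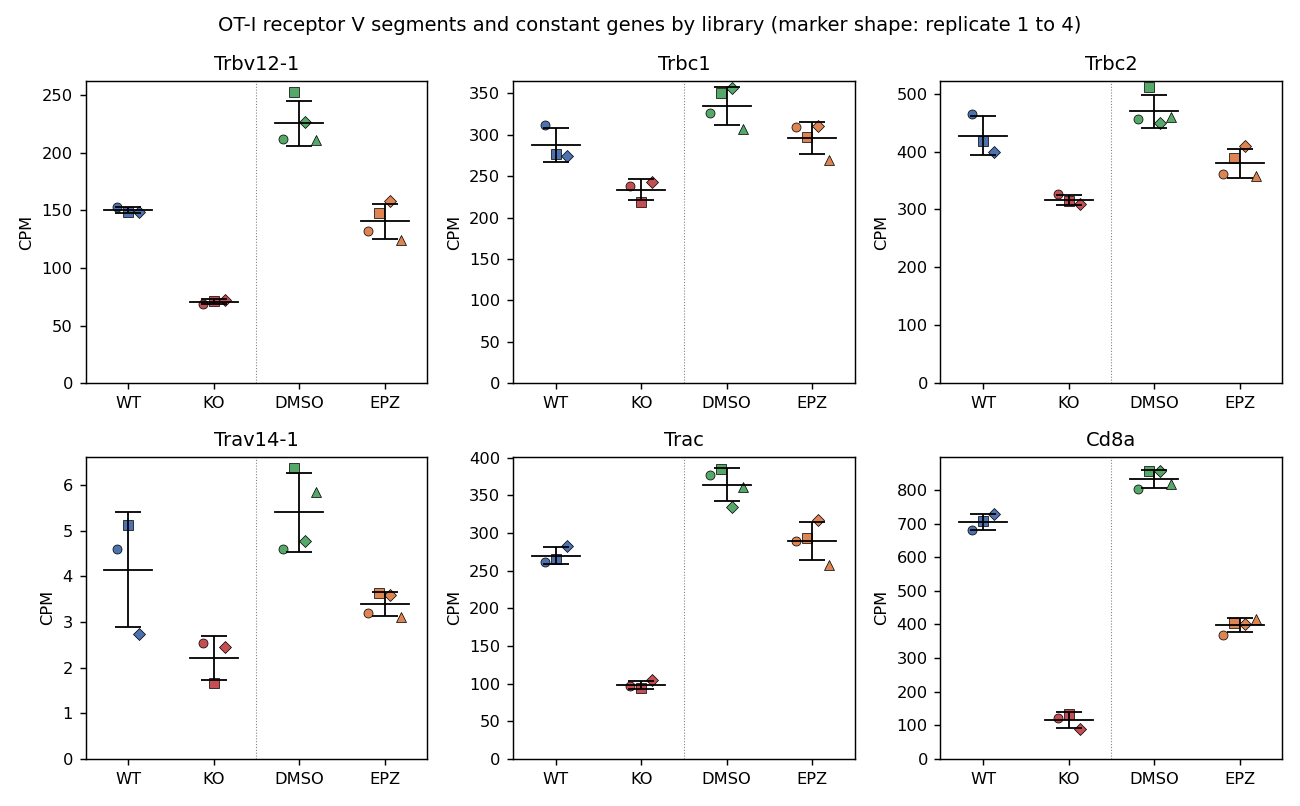
Level in CPM (vertical axes, from 0) of Trbv12-1, Trbc1, Trbc2, Trav14-1, Trac and Cd8a in each library of the WT, KO, DMSO and EPZ groups, each point being 1 library, lines the group mean and bars the SD. Trbv12-1 lies between 68.6 and 72.4 CPM in the 3 KO libraries and between 148 and 153 CPM in the 3 WT libraries, and Trav14-1 is lower in the EPZ than in the DMSO libraries.

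The constant genes of the beta chain also fell, by less than Trbv12-1. Trbc1 had a log2 fold change of -0.29 and Trbc2 of -0.42 for KO against WT (edgeR adjusted p 0.00396 and 2.24e-04). For EPZ against DMSO Trbc2 fell by 0.30 (edgeR adjusted p 0.00962) and Trbc1 had -0.17 (edgeR adjusted p 0.104). Trbv12-1 counts were therefore set against the counts of Trbc1 plus Trbc2 in the same library. This ratio was 12.2%, 13.4% and 13.1% in libraries labelled KO and 19.7%, 21.4% and 22.1% in those labelled WT. Under EPZ it was 19.7%, 21.5%, 22.0% and 19.8%, and under DMSO 27.1%, 29.4%, 28.2% and 27.5%. No KO library reached the lowest WT library, and no EPZ library the lowest DMSO library. The mean log2 ratio differed by -0.71 between KO and WT (exact two-sided permutation p = 0.10, the smallest that 3 against 3 libraries allow, and 0.133 adjusted over 4 ratio tests). For EPZ against DMSO the difference was -0.43 (exact two-sided permutation p = 0.0286, the smallest that 4 against 4 allow, and 0.114 adjusted over the same 4 tests). It was lower in 4 of 4 animals.

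The remaining beta V segments were at low levels. The 11 reported Trbv segments other than Trbv12-1 summed to 2.41 ± 0.34 CPM (SD, n = 3) in libraries labelled KO and 2.38 ± 0.20 (SD, n = 3) in WT, and to 1.83 ± 0.034 (SD, n = 4) under EPZ and 2.32 ± 0.71 (SD, n = 4) under DMSO. Both pairs of groups overlapped. Taken singly, the 11 also overlapped in both comparisons except Trbv20 in EPZ against DMSO, with at most 0.055 CPM in an EPZ library and at least 0.082 CPM in a DMSO library (means 0.040 and 0.20 CPM), on 19 counts in all 14 libraries. Trbv13-2, of the V beta 8 family, was the most abundant of them in CPM, with 1.04 ± 0.17 (KO), 0.97 ± 0.22 (WT), 0.39 ± 0.18 (EPZ) and 0.36 ± 0.21 (DMSO). Trbv19, Trbv29 and Trbv31, the last lying downstream of the constant genes, each held 36 to 56 counts in all. The share of Trbv12-1 among Trbv counts was 96.7% ± 0.37 (SD, n = 3) in KO and 98.4% ± 0.13 (SD, n = 3) in WT libraries, without overlap. It was 98.7% ± 0.14 (SD, n = 4) under EPZ and 99.0% ± 0.35 (SD, n = 4) under DMSO, with overlap.

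**Figure D2:**
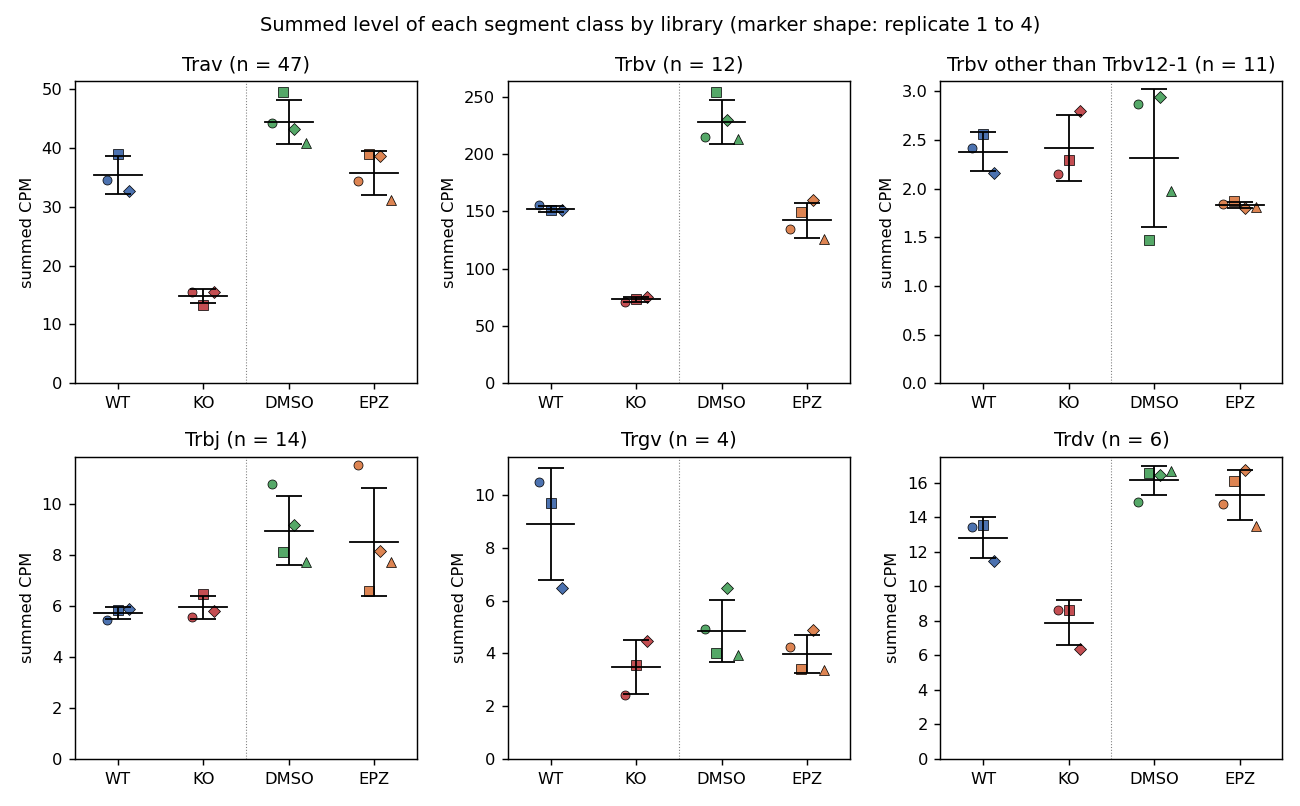
Summed CPM (vertical axes, from 0) of the reported segments of each class in each library, with n the number of segments, points the libraries, lines the group mean and bars the SD. Trav and Trbv sums are lower in every KO library than in any WT library and in every EPZ library than in any DMSO library, whereas the Trbv segments other than Trbv12-1 and the Trbj segments overlap between groups.

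Alpha V segments were spread over many members. Summed over the 47 reported, the level was 15.6, 13.4 and 15.4 CPM in libraries labelled KO against 34.6, 39.0 and 32.7 CPM in WT. EPZ libraries had 34.4, 39.0, 38.6 and 31.2 CPM and DMSO libraries 44.2, 49.6, 43.2 and 40.8 CPM. Neither pair of groups overlapped, and the KO mean was 0.418 of the WT mean, the EPZ mean 0.805 of the DMSO mean. Trac itself, the alpha constant gene, had a log2 fold change of -1.45 for KO against WT (edgeR adjusted p 4.34e-09) and of -0.33 for EPZ against DMSO (edgeR adjusted p 0.00978).

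Trav14-1, of the family used by OT-I, stood at 2.53, 1.65 and 2.46 CPM in libraries labelled KO and at 4.59, 5.13 and 2.73 CPM in WT. EPZ libraries had 3.20, 3.63, 3.60 and 3.12 CPM, and DMSO libraries 4.60, 6.39, 4.78 and 5.85 CPM. The groups did not overlap in either comparison, though WT 3 lay just above the highest KO library. The log2 fold change was -0.84 ± 0.29 (SE) for KO against WT (edgeR adjusted p 0.0351) and -0.66 ± 0.15 (SE) for EPZ against DMSO (edgeR adjusted p 0.0113). For KO against WT the adjusted p rose above 0.05 when KO 2 (0.212), KO 3 (0.0532), WT 1 (0.118) or WT 2 (0.0807) was left out.

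Among the other Trav14 segments, Trav14-2 averaged 0.22 CPM in KO and 0.25 in WT, and 0.50 in EPZ and 0.81 in DMSO libraries. Trav14-3 averaged 0.54 and 1.13 CPM in KO and WT, and 0.87 and 1.03 CPM in EPZ and DMSO. The copies Trav14d-3-dv8 and Trav14n-3 held 23 and 36 counts in all. The 5 segments together took 21.4% ± 3.27 (SD, n = 3) of Trav counts in libraries labelled KO and 16.0% ± 2.75 (SD, n = 3) in WT, and 14.2% ± 0.84 (SD, n = 4) under EPZ and 17.3% ± 1.47 (SD, n = 4) under DMSO. KO libraries (19.5% to 25.2%) lay above WT libraries (12.9% to 18.2%), while EPZ and DMSO libraries overlapped by a narrow margin, at 15.160% and 15.152%. The share of Trav14-1 alone overlapped between KO (12.4% to 16.3%) and WT libraries (8.35% to 13.3%). It was lower without overlap in EPZ (9.31% to 10.0%) than in DMSO libraries (10.4% to 14.3%). Relative to Trac counts, Trav14-1 reached 2.24% ± 0.45 (SD, n = 3) in KO and 1.55% ± 0.52 (SD, n = 3) in WT libraries, a log2 difference of 0.58 (exact two-sided permutation p = 0.30, adjusted 0.30). The values were 1.17% ± 0.063 (SD, n = 4) under EPZ and 1.48% ± 0.20 (SD, n = 4) under DMSO, a log2 difference of -0.33 (exact two-sided permutation p = 0.0571, adjusted 0.114), lower in 4 of 4 animals.

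Per kb of exon, the highest reported alpha V row was not of the OT-I family. All windows of 50 bases in Trav21-dv12 were unique to it. The share was 54.4% for Trav14-2, 43.3% for Trav14-3 and 53.8% for Trav14n-3, and 0% for unreported copies such as Trav14d-1 and Trav14n-1. For Trav14-1 it was 95.1%. Counts of the copies that share windows may be too low, and how far this bears on the family was not tested. Level and share of the Trav14 family therefore do not rank OT-I against other alpha chains. Trav21-dv12, which can join in alpha or delta chains, averaged 16.8 CPM per kb over the libraries, Trav14-1 9.71 and Trav19 6.68, against 284 CPM per kb for Trac. Trav21-dv12 stood at 3.42, 2.45 and 2.01 CPM in libraries labelled KO and at 5.44, 9.34 and 5.46 CPM in WT, without overlap. Its log2 fold change was -1.29 ± 0.26 (SE), with an edgeR adjusted p of 0.00152. Under EPZ it had 6.02, 7.48, 7.81 and 5.50 CPM and under DMSO 8.14, 8.51, 5.63 and 7.40 CPM, with overlap and a log2 fold change of -0.15 ± 0.16 (SE, edgeR adjusted p 0.532). It took 17.8% ± 4.48, 18.8% ± 4.49, 18.6% ± 1.30 and 16.7% ± 2.49 of Trav counts (SD) in KO, WT, EPZ and DMSO libraries, with overlap in both comparisons.

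Trav19 was also lower in KO than in WT libraries, and had entered that test only through the WT libraries. Its level was 0.89, 1.07 and 0.67 CPM in libraries labelled KO and 3.38, 3.48 and 2.88 CPM in WT, a log2 fold change of -1.76 ± 0.26 (SE, edgeR adjusted p 1.52e-04). Under EPZ it had 3.58, 2.92, 3.96 and 3.61 CPM and under DMSO 4.36, 4.26, 2.45 and 4.21 CPM, with a log2 fold change of -0.15 ± 0.19 (SE, edgeR adjusted p 0.624). The KO and WT groups were well apart, while EPZ and DMSO overlapped. Trav3-3 and Trav16 were also called lower in KO, with log2 fold changes of -1.56 and -1.26 (edgeR adjusted p 0.0182 and 0.00808). Of their windows of 50 bases, 60.0% and 51.8% were unique to them. Trav3-3 held 0 counts in KO 1 and 11 in WT 1, and its call was lost without KO 2 (edgeR adjusted p 0.0872) or WT 3 (0.113). Under EPZ against DMSO, Trav3-3 had -0.15 and Trav16 0.26 (edgeR adjusted p 0.684 and 0.457).

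Of the 92 segments, 10 had enough counts for a test of KO against WT and 27 for EPZ against DMSO. In KO against WT, 9 of the 10 were called lower and 0 higher, where 40.4% of the 11570 genes tested were called, 20.1% lower and 20.3% higher, at an adjusted p of 0.05. The median log2 fold change of the 10 was -1.15, and that of all genes tested -0.0063. At an unadjusted p under 0.05, 9 of the 10 passed, beside 5579 of all genes tested (48.2%), and DESeq2 called the same 9 and 0 higher. Trav3-3, Trav16 and Trav19 entered the test only because WT libraries were above its minimum of 1.13 CPM, and Trdv5 reached it in only 1 KO library, so neither the count nor the median describes all segments. In EPZ against DMSO, 2 of the 27 were called lower, Trbv12-1 and Trav14-1, and 0 higher, where 20.2% of the 12208 genes tested were called, 8.31% lower and 11.9% higher. A share of 2 in 27 is close to the background of lower calls. The median of the 27 was -0.21 against -0.0076 for all genes, 23 of them had a negative value, and 4, all lower, passed an unadjusted p under 0.05, beside 4172 of all genes tested (34.2%). DESeq2 called the same 2.

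**Figure D3:**
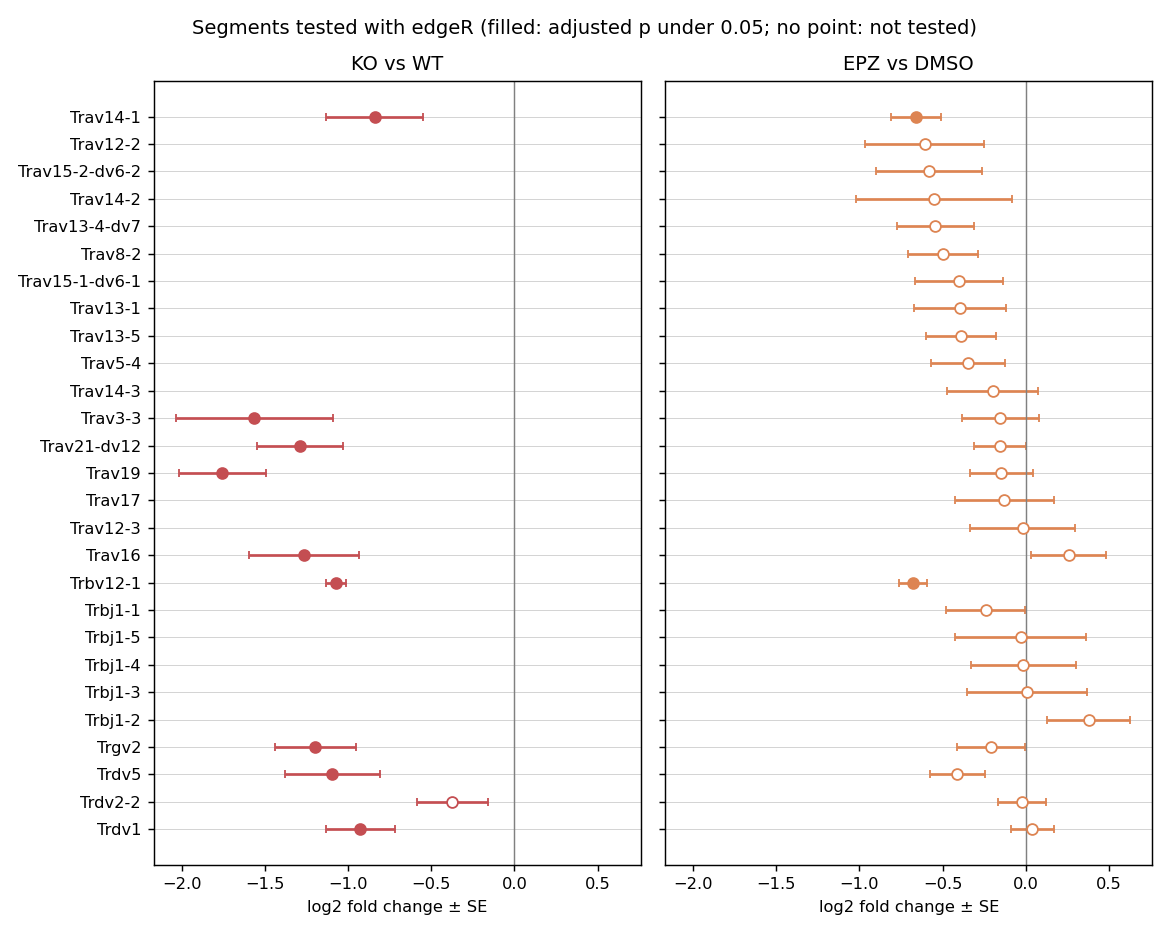
Log2 fold change with its SE (horizontal axes) of each segment tested with edgeR in KO against WT (left) and EPZ against DMSO (right), filled where the adjusted p was under 0.05. In the left panel 9 of 10 points are filled and negative, and in the right panel the 2 filled points are Trbv12-1 and Trav14-1.

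Alpha V segments were counted along the locus by their distance from Trac. Within 0.5 Mb upstream of Trac, 13 of 16 Trav rows were reported and held 50.96% of Trav counts. From 0.5 to 1 Mb it was 28 of 52 rows and 46.1%, from 1 to 1.5 Mb 5 of 52 rows and 2.17%, and beyond 1.5 Mb 1 of 10 rows and 0.77%. The middle of the locus is a repeat in which each V segment has near-identical copies, named with d or n. Of the 130 rows, 43 had no window of 50 bases unique to them, and 0 of these were reported, so their level cannot be read from these counts. From the nearest to the farthest of the 4 intervals, 0, 15, 28 and 0 rows had no such window, so the counts of detected segments by distance also depend on the copies. The 56 rows without d or n in the name held 96.52% of Trav counts. The farthest 10 rows were mostly unique, with a median of 90.65% of windows unique to the gene. Among the rows unique in every window, Trav21-dv12, Trav19 and Trav17 lay 344, 375 and 413 kb from Trac at 16.8, 6.68 and 3.92 CPM per kb. Trav5-1, Trav2 and Trav1 lay 1597, 1652 and 1792 kb away at 0.11, 0.26 and 0.03 CPM per kb. Levels also varied near Trac, where Trav22, at 293 kb, was at 0 and Trav18, at 389 kb, at 0.43 CPM per kb.

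**Figure D4:**
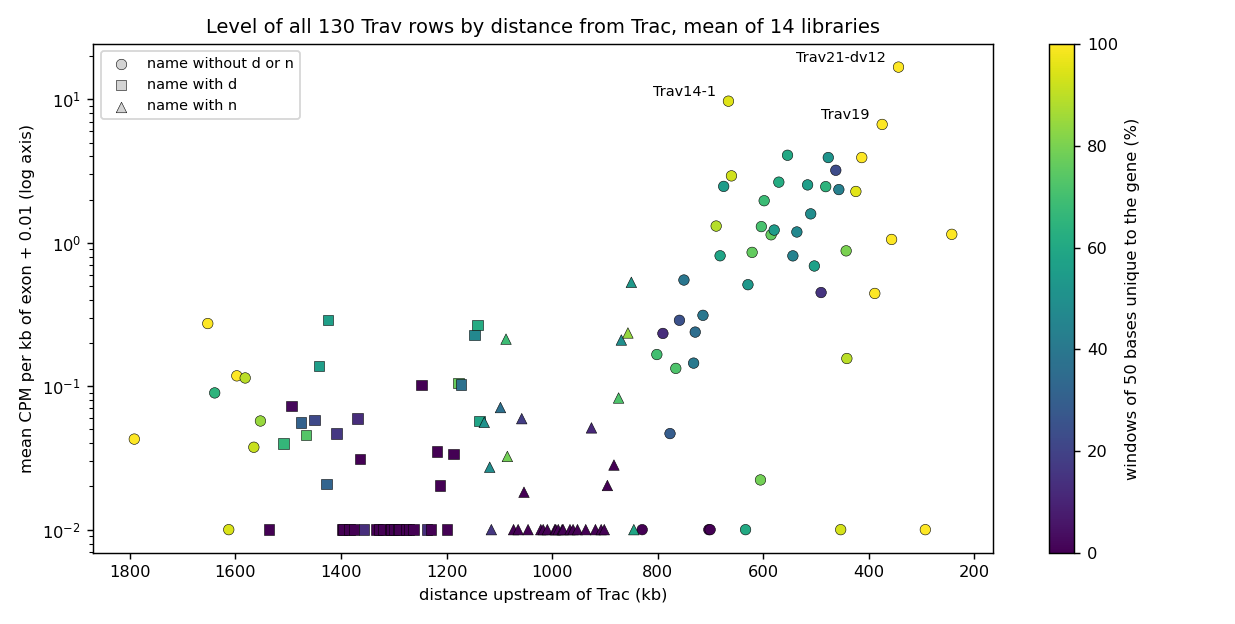
Mean level over the 14 libraries in CPM per kb of exon plus 0.01 (vertical log axis) of all 130 Trav rows against their distance upstream of Trac in kb (horizontal axis), coloured by the share of windows unique to the gene, with symbols for copies named with d or n. Rows above 1 CPM per kb lie no farther than 689 kb from Trac, and most rows at 0 are copies with few unique windows.

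The 7 Trav segments with dv in their names summed to 5.10 ± 0.88 CPM (SD, n = 3) in libraries labelled KO and 11.2 ± 2.35 (SD, n = 3) in WT, without overlap. They summed to 11.1 ± 1.64 (SD, n = 4) under EPZ and 13.6 ± 1.13 (SD, n = 4) under DMSO, with overlap. The effective number of Trav segments, the exponential of the Shannon entropy of their shares, says how many equally used segments would give the same spread. It was 19.3 ± 2.11 (SD, n = 3) in KO, 21.5 ± 3.12 (SD, n = 3) in WT, 22.6 ± 1.11 (SD, n = 4) in EPZ and 22.9 ± 1.43 (SD, n = 4) in DMSO libraries. The groups overlapped in both comparisons. For Trbv, where Trbv12-1 dominates, it was 1.23 ± 0.026, 1.11 ± 0.0062, 1.101 ± 0.0097 and 1.08 ± 0.026 in the same order (SD), and each KO library was above each WT library.

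J segments were counted at low depth. Traj33, the OT-I alpha J segment, held 17 counts in all, and 4 of the 14 libraries held 0, so no shift was detectable at this depth. The other reported Traj segments, Traj61, Traj59, Traj58, Traj49 and Traj19, had 10 to 20 counts each. Trbj2-7, the OT-I beta J segment, held 41 counts. The share of Trbj2-7 among Trbj counts was 1.65% to 2.27% in libraries labelled KO and 3.51% to 6.25% in WT, each on 1 to 4 counts. Averaged over the libraries, Traj33 stood at 2.00 and Trbj2-7 at 4.47 CPM per kb, against 391 CPM per kb for Trbv12-1. These J segments have 57 and 47 bases, against 389 bases of exon for Trbv12-1. Trbj2-7 is thus shorter than a window of 50 bases. How many reads can be assigned to so short a row is not known here, so these values do not compare usage. The 14 Trbj segments summed to 5.95 ± 0.45 CPM (SD, n = 3) in KO and 5.72 ± 0.25 (SD, n = 3) in WT libraries. Under EPZ they summed to 8.51 ± 2.13 (SD, n = 4) and under DMSO to 8.95 ± 1.36 (SD, n = 4). In contrast to Trbv, both pairs of groups overlapped.

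Most Trbj counts, 57.7% to 84.0% per library, fell in the cluster of Trbj1-1 to Trbj1-7, which lies upstream of Trbc1 and not next to Trbj2-7. Averaged over all 14 libraries Trbj1-1 was the highest per kb (29.4 CPM per kb), at 1.00 ± 0.21 CPM in KO, 0.83 ± 0.34 in WT, 1.64 ± 0.48 in EPZ and 1.93 ± 0.12 in DMSO libraries (SD). Within groups the order changed, as the means were 0.90 CPM for Trbj1-4 in WT and 1.74 CPM for Trbj1-2 in EPZ libraries. For EPZ against DMSO, Trbj1-1 had a log2 fold change of -0.24 and Trbj1-2 of 0.38 (edgeR adjusted p 0.51 and 0.322), and Trbj1-3, Trbj1-4 and Trbj1-5 lay between -0.032 and 0.0066 (edgeR adjusted p 0.968 to 0.992). The effective number of Trbj segments was 10.8 ± 0.69 (KO), 9.75 ± 2.38 (WT), 9.46 ± 1.23 (EPZ) and 10.2 ± 1.06 (DMSO), with overlap in both pairs.

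Gamma V counts were almost all Trgv2, a gamma V segment that lies between the constant genes Trgc2 and Trgc4. It took 85.4% to 100% of Trgv counts in every library. Its level was 2.28, 3.57 and 4.25 CPM in libraries labelled KO and 9.67, 9.34 and 6.08 CPM in WT, with no overlap. The log2 fold change was -1.20 ± 0.24 (SE, edgeR adjusted p 0.00159). EPZ libraries had 3.80, 3.19, 4.47 and 3.28 CPM and DMSO libraries 4.21, 3.52, 6.25 and 3.53 CPM, which overlapped, with a log2 fold change of -0.21 ± 0.20 (SE, edgeR adjusted p 0.514). Trgv1 averaged 0.29 CPM in WT libraries and held 0 counts in the 3 KO libraries, and Trgv4, Trgv5 and Trgj1 held 24, 15 and 10 counts in all. The gamma constant genes fell in KO against WT as well, with log2 fold changes of -1.66 (Trgc1), -1.61 (Trgc2) and -3.45 (Trgc4), the last from 12.3 ± 2.06 to 1.1 ± 0.15 CPM (SD, n = 3, edgeR adjusted p 1.34e-07). In EPZ against DMSO Trgc4 fell by 0.89 (edgeR adjusted p 0.0137), while Trgc1 had -0.28 and Trgc2 -0.37 (edgeR adjusted p 0.140 and 0.0911).

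Delta V segments were led by Trdv1 and Trdv2-2. Trdv1 stood at 3.17, 3.04 and 2.01 CPM in libraries labelled KO and at 6.04, 4.94 and 5.10 CPM in WT, a log2 fold change of -0.93 ± 0.21 (SE, edgeR adjusted p 0.00304). Under EPZ it had 6.02, 5.78, 6.68 and 4.84 CPM and under DMSO 5.79, 5.49, 5.39 and 6.19 CPM, with a log2 fold change of 0.038 ± 0.13 (SE, edgeR adjusted p 0.872). Only the KO and WT libraries were separate. Trdv5 stood at 1.01, 1.23 and 0.89 CPM in KO and at 1.93, 3.30 and 2.22 CPM in WT libraries, a log2 fold change of -1.10 ± 0.28 (SE, edgeR adjusted p 0.00797). For EPZ against DMSO it had -0.41 ± 0.16 (SE, edgeR adjusted p 0.0993), with no overlap between 2.17 to 3.13 CPM and 3.40 to 3.96 CPM. Trdv5 lies downstream of Trdc on the opposite strand and overlaps its annotation, and the strand setting of the counting is not given, so reads of the pair may be mixed.

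Trdv2-2 did not pass the test in KO against WT, with 3.29, 3.09 and 2.46 CPM against 4.47, 4.39 and 3.30 CPM and a log2 fold change of -0.37 ± 0.22 (SE, edgeR adjusted p 0.192). Its value for EPZ against DMSO was -0.024 (edgeR adjusted p 0.927). Trdv4, the V segment of an early gamma delta T cell wave, was higher in each KO library (1.14, 1.17 and 1.01 CPM) than in any WT library (0.60, 0.73 and 0.72 CPM). It did not reach the minimum for the test of KO against WT. Fitted with no filter beyond a summed count of 10 it was tested and not called, with a log2 fold change of 0.69 ± 0.36 (SE, edgeR adjusted p 0.162). As a share of Trdv counts it was 14.2% ± 1.39 (SD, n = 3) in KO and 5.41% ± 0.90 (SD, n = 3) in WT, and 4.41% ± 1.81 (SD, n = 4) under EPZ and 2.54% ± 0.99 (SD, n = 4) under DMSO, the last pair with overlap. The depth was low, since KO 1 had 9 of 68 counts, an exact 95% binomial interval of 6.23% to 23.6% that covers counting error only. Trdv2-1, Trdv3, Trdj1 and Trdj2 held 19, 12, 56 and 11 counts in all. Trdv2-1, Trdv2-2, Trdv4, Trdj1 and Trdj2 also overlap predicted genes on the other strand, as do Trgv4 and Trgv5.

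**Figure D5:**
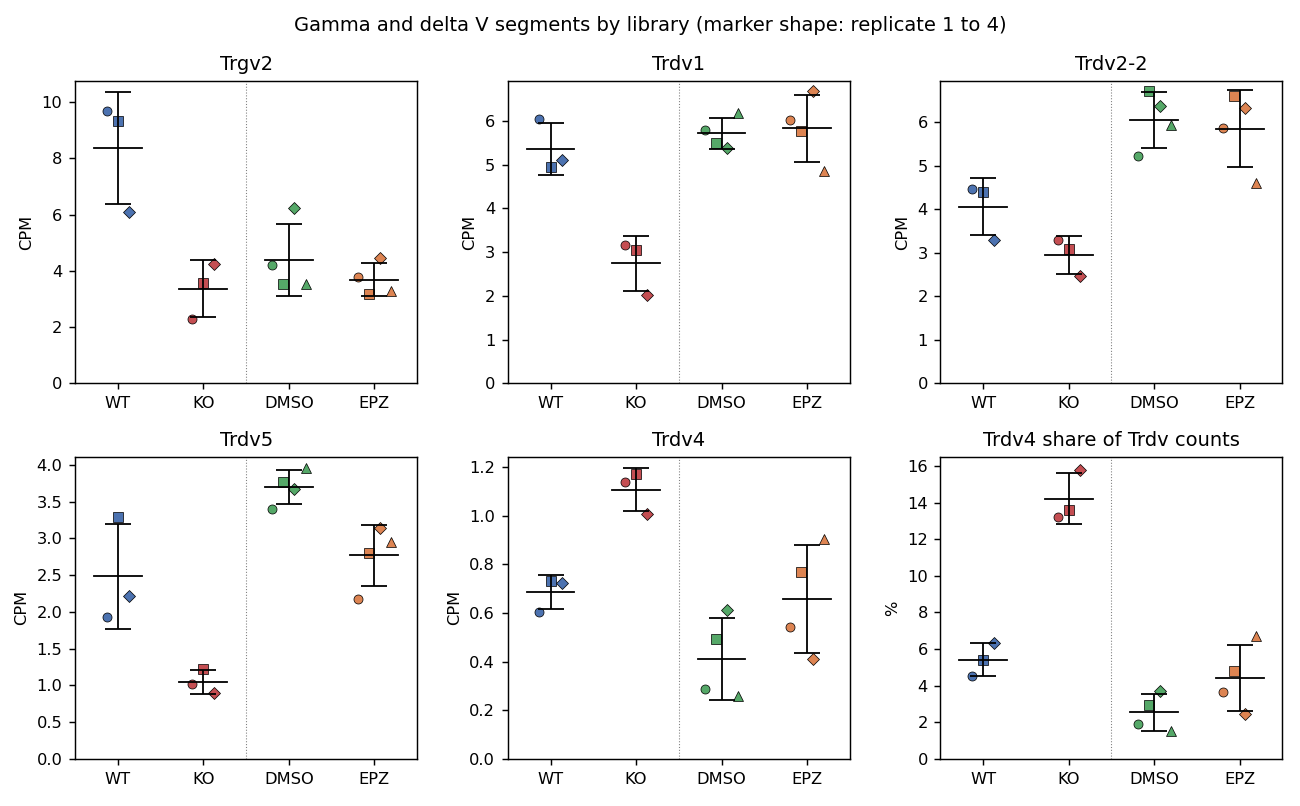
Level in CPM (vertical axes, from 0) of Trgv2, Trdv1, Trdv2-2, Trdv5 and Trdv4 in each library, and in the last panel Trdv4 as a percent of all Trdv counts, with lines the group mean and bars the SD. Trdv4 is the one panel in which the KO libraries lie above the WT libraries, at 13.2% to 15.8% of Trdv counts against 4.50% to 6.31%.

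Summed over their members, Trgv segments averaged 3.48 CPM in KO and 8.90 in WT libraries, and Trdv segments 7.88 and 12.8, both without overlap. Under EPZ and DMSO the means were 3.97 and 4.85 CPM for Trgv and 15.3 and 16.1 for Trdv, both with overlap. Trdc, the delta constant gene, had a log2 fold change of -0.82 for KO against WT (edgeR adjusted p 4.48e-06) and of 0.11 for EPZ against DMSO (edgeR adjusted p 0.245). Of 10 listed markers for gamma delta T cells and innate-like T cells, 9 were in the table. Il17a was at 0, and Sox13, Zbtb16, Il23r and Blk held 4 to 36 counts each. Of the 3 tested, Trdc among them, 1 rose and 2 fell in KO against WT, where 20.3% and 20.1% of all genes did. In EPZ against DMSO 1 of 3 rose and 0 fell, where 11.9% and 8.31% did. Numbers this small cannot be set against those shares. The list's summed level, mostly Trdc, was 128 to 133 CPM in KO, 168 to 205 in WT, 229 to 261 in EPZ and 203 to 233 in DMSO libraries. How far other T cells bear on the gamma and delta segments was not tested.

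Whether the effect labelled KO differed from that of the inhibitor was tested as (KO minus WT) minus (EPZ minus DMSO) over all 14 libraries. Of 27 segments tested, 8 were lower and 0 higher, where 7.6% of the 12639 genes tested were called, 4.31% lower and 3.29% higher. The differences were -2.87 ± 0.52 for Trav8-2 (edgeR adjusted p 0.00280), -1.63 ± 0.33 for Trav19 (0.00567), -0.98 ± 0.23 for Trdv1 (0.0148) and -2.51 ± 0.61 for Trav13-1 (0.0188), each log2 with its SE. Those of Trav16 (-1.56), Trav21-dv12 (-1.15), Trbv12-1 (-0.40) and Trav12-3 (-2.01) had edgeR adjusted p between 0.0261 and 0.0465. At an unadjusted p under 0.05, 11 of the 27 passed, beside 2797 of all genes tested (22.1%), and DESeq2 called 6, each among the 8. For Trav14-1 the difference was -0.20 ± 0.32 (SE, edgeR adjusted p 0.767), and for Trgv2 -1.03 ± 0.34 (SE, edgeR adjusted p 0.0789). Trav8-2 is annotated as a pseudogene. Of its windows of 50 bases 64.6% were unique to it, beside 54.6% for Trav13-1, 51.8% for Trav16 and 68.2% for Trav12-3. For Trav19, Trav21-dv12, Trdv1 and Trbv12-1 the share was 100%. Trav8-2 rested on 3 counts in the KO libraries together, 1 in each, against 33 in WT, a pooled ratio of 0.0878 with an exact 95% counting interval of 0.0172 to 0.28. Trav13-1 had 4 counts in KO and 30 in WT, and Trav12-3 9 and 34. In CPM, Trav8-2 averaged 0.10 in KO, 0.90 in WT, 0.89 in EPZ and 1.26 in DMSO libraries, and Trav13-1 and Trav12-3 averaged 0.12 and 0.23 in KO. None of these 3 reached the minimum for KO against WT, and they entered the test of the difference through the other groups, so the count of 8 does not describe all segments. With the replicate number as a block, which is the animal for DMSO and EPZ and only a number for KO and WT, the count was 7, and Trav16 was the one lost (edgeR adjusted p 0.0564). When single libraries were left out the count ran from 2 to 8, lowest without KO 2 (2) and KO 3 (3). The call of Trav8-2 was lost without KO 2 (edgeR adjusted p 0.0597). The count was 5 without KO 1, WT 1, WT 2, DMSO 1 or EPZ 2 and 4 without DMSO 4 or EPZ 3.

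Without the 4 libraries whose sex went against the label, 1 KO and 1 WT library remained, with the spread taken from the other groups. Then 3 of the 9 segments called lower in KO were still called, Trbv12-1, Trav3-3 and Trgv2, and 0 of the 8 differences of effects. The adjusted p of the 6 lost calls ranged from 0.0522 to 0.363. Their log2 fold changes, from 1 library against 1, were -2.37 for Trav16, -1.92 for Trav19, -0.93 for Trdv1 and Trdv5, -0.86 for Trav14-1 and -0.67 for Trav21-dv12, all still negative. That of Trav3-3 rests on the 0 counts of KO 1. In that setting, a lone library is assumed to vary like the DMSO and EPZ libraries.

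Genes that act with the segments were counted over all genes tested, and each count below stands beside the shares of all genes called, 20.3% higher and 20.1% lower in KO against WT and 11.9% higher and 8.31% lower in EPZ against DMSO. Of 12 receptor complex and constant genes, 11 were tested, with 9 lower and 0 higher in KO against WT (median log2 fold change -0.71) and 5 lower and 0 higher in EPZ against DMSO (median -0.28). Cd3d, a signalling chain of the complex, fell by 0.71 and by 0.27 (edgeR adjusted p 2.78e-06 and 0.0395), whereas Cd3e had 0.16 and -0.15 (edgeR adjusted p 0.0891 and 0.123) and Cd3g did not pass either (edgeR adjusted p 0.997 and 0.541). The list's summed level was 2274 to 2359 CPM in KO, 2839 to 3188 in WT, 2657 to 3028 in EPZ and 3140 to 3455 in DMSO libraries. Of 11 genes of V(D)J recombination and the pre-receptor, Rag1, Rag2 and Ptcra were at 0 in all 14 libraries. Among those tested, 2 of 7 fell in KO against WT, a share near that of all genes, the DNA repair genes Xrcc4 (-0.68, edgeR adjusted p 0.00141) and Prkdc (-0.86, 0.00217). In EPZ against DMSO 1 of 8 rose and 2 fell, at log2 fold changes of 0.21 for Xrcc5, -0.34 for Dclre1c and -0.38 for Xrcc4 (edgeR adjusted p 0.0370 to 0.0452). Of the 9 CD8 T cell markers, 7 fell in KO against WT and 6 in EPZ against DMSO. Apart from the CD8 chains, these markers are also in the list of receptor complex and constant genes, so the counts overlap. Cd8a fell by 2.60 and by 1.06, more than Trbv12-1 in each comparison by the fitted value, a difference that was not tested.

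Markers of other cells moved in both directions beside the segments. Of the NK cell markers, 4 of 5 tested rose and 1 fell in libraries labelled KO, and 3 of 4 rose in EPZ against DMSO with 1 lower. Among those that rose in KO were Fcgr3 (50.3 against 1.04 CPM), Klrb1c (74.4 against 15.7 CPM) and Ncr1 (4.52 CPM against 0). Klrd1 was the lower one in both, at 228 CPM in KO, 326 in WT, 287 in EPZ and 374 in DMSO libraries. The list's summed level was 624 to 706 CPM in KO, 536 to 669 in WT, 516 to 561 in EPZ and 474 to 557 in DMSO libraries, with overlap in both pairs. Among 9 B cell markers, Ms4a1 and Blnk were at 0 and Pax5 held 1 count, while Ighm averaged 124 CPM in KO, 529 in WT, 488 in EPZ and 1104 in DMSO libraries. All 3 B cell markers tested fell in KO against WT and 2 of 3 in EPZ against DMSO, numbers too small to set against those shares, and the list summed to 121 to 141, 483 to 593, 423 to 553 and 1039 to 1293 CPM in the same order of groups. Among 7 CD4 and regulatory T cell markers, 3 of 5 fell and 1 rose in KO against WT and 4 of 6 fell in EPZ against DMSO. Their sum, mostly Il2ra, ran over 228 to 263, 393 to 410, 299 to 342 and 471 to 549 CPM. Il2ra averaged 162, 307, 226 and 341 CPM in that order, and Cd4 0.51, 0.42, 1.36 and 3.36 CPM. Of 7 myeloid markers, 2 of 3 tested rose in KO against WT and 1 of 3 in EPZ against DMSO. Their sum was 35.9 to 51.9, 13.0 to 16.8, 10.2 to 11.1 and 7.70 to 12.1 CPM, with Lyz2, Csf1r and Adgre1 at 1 to 5 counts in all. The part of these cells in the segment levels was not tested.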

How the data were processed

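RNA was prepared with a stranded poly(A) kit from samples with high RNA integrity, per the labels' protocols. The authors deposited raw counts of reads per gene, 1 column per library, with no normalization. TopHat2 2.1, Bowtie 1.1, HTSeq and the mm10 build are named in the submitters' processing notes. The strand setting, the annotation release and the handling of reads that map to several copies or span a joined V and J segment could not be learned from the sources used here, and each could lower segment counts. All 258 segment rows had the coordinates of GENCODE M21, as did 98.7% of the table. The table also has a nameless line with 0 counts, which was dropped.

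Genes were tested on these counts with edgeR 4.0.16 in R 4.3.3 (TMM, filterByExpr with a minimum count of 10 and total of 15, quasi-likelihood F-test), each comparison within its own libraries, and the difference of effects over all 14. Adjusted p is Benjamini-Hochberg over all genes tested, called at 0.05. DESeq2 1.42.0 was an alternative. Levels are CPM with TMM factors over all libraries. Sums, shares and effective numbers were described without tests, and 4 ratios to constant genes had exact permutation tests, which permuted libraries freely and did not use the animals. The fit was tested on simulated data. No 2 libraries of a group were copies (chi-square per degree of freedom 2.05 to 18.1). Intervals cover counting error only, since the reads carry no molecular identifiers.

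The members and all lists were chosen with earlier results of these data known. Named in the text are the Trav14 and Trbv12 members, Traj33 and Trbj2-7, the 5 highest segments of each class, and each segment called. DMSO and EPZ libraries of 1 number share an animal per the library names, and deviations from the group means correlated at 0.538, -0.0525, -0.112 and 0.422 within animals. KO and WT libraries share only a number. A listed marker gene is not reported here.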

Additional observations from a re-analysis of the deposited data

Results flagged for a closer look

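In groups of 4 libraries, 6 of the 107 groups examined held 1 library far from the other 3, and chance alone flags about 1 in 20. Trav19 was at 2.45 CPM in DMSO 3, where the other DMSO libraries had 4.21 to 4.36 CPM. Trbj1-5 was at 0.33 CPM in DMSO 2 against 0.72 to 0.77 CPM. Trbv13-2 was at 0.67 CPM in DMSO 1 against 0.24 to 0.26 CPM. The summed Trdv level was 14.9 CPM in DMSO 1 against 16.4 to 16.7 CPM. Trbj1-1 took 18.2% of Trbj counts in DMSO 1 against 22.7% to 23.3%. Trav14-1 took 10.0% of Trav counts in EPZ 4 against 9.31% in each of the other 3 EPZ libraries.

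By the edgeR contrast over all 14 libraries, the effect labelled KO was called lower than that of the inhibitor for 8 of 27 segments. Of all genes tested, 4.31% were called lower. Trav8-2, Trav13-1 and Trav12-3 held 3, 4 and 9 counts in the KO libraries and entered the test through the other groups. The number called fell to 2 without KO 2. The log2 differences were -2.87 for Trav8-2, -2.51 for Trav13-1, -2.01 for Trav12-3, -1.63 for Trav19, -1.56 for Trav16, -1.15 for Trav21-dv12, -0.98 for Trdv1 and -0.40 for Trbv12-1. Under EPZ, Trbv12-1 was the one of these 8 called lower than in DMSO.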

How the results depend on the processing

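Of all genes, 20.1% were lower in KO against WT, 8.31% in EPZ against DMSO and 4.31% in the difference of effects. The number of segments called was 9, 2 and 8 in that order. For KO against WT it was 16 of 53 tested with no filter beyond a summed count of 10, 15 of 27 with all 14 libraries fitted together and 3 of 33 without the libraries whose sex went against the label, a setting chosen after seeing the data. The main count was 9 of 10. Of all genes, 16.2%, 17.7% and 3.28% were lower in those 3 settings. In the first 2 of these settings all 9 remained. With that last setting the difference of effects gave 0. Leaving out single libraries gave 7 to 9 calls for KO against WT, 2 to 8 for the difference, and 2 throughout for EPZ against DMSO. The share of all genes called lower moved too. It was 13.9% to 19.5% for KO against WT and 5.03% to 8.77% for EPZ against DMSO. For the difference it ran from 2.34% without KO 2 to 5% without DMSO 3. With the replicate number as a block, the counts were 9, 2 and 7, where 18.5%, 11.2% and 4.93% of all genes were lower. In the DMSO and EPZ libraries that block is the animal, in the KO and WT libraries only a number, whose deviations correlated at 0.0485, -0.152 and -0.15. The difference of effects of Trbv12-1 missed the threshold with DESeq2's size factors (adjusted p 0.059), with no filter (0.0743) and without each of 10 single libraries. That of Trav12-3 missed it with DESeq2 (0.0786), with no filter (0.0647) and without each of 12 single libraries (0.0538 to 0.125). That of Trav13-1 missed it with DESeq2 (0.0651) and without KO 2 (0.0956) or KO 3 (0.053). That of Trav16 missed it with the replicate block (edgeR adjusted p 0.0564). Left out singly, KO 1, KO 2, KO 3, WT 1, DMSO 1, DMSO 4 or EPZ 3 also cost the call (0.0513 to 0.0774). That of Trav21-dv12 missed it without KO 2, KO 3, WT 2, DMSO 1, DMSO 4, EPZ 2 or EPZ 3 (0.0532 to 0.131). That of Trav8-2 missed it without KO 2 (0.0597). The Trbv difference between KO and WT was -1.06 in log2 summed CPM and -1.005 with library totals. The effective number of Trbv segments differed by 0.11 between KO and WT, by 0.037 as an inverse Simpson index and by 0.54 without Trbv12-1. Between EPZ and DMSO it differed by 0.019, and by -0.26 without Trbv12-1. Values near 0 that were not called changed sign in EPZ against DMSO. Trav12-3 was at 0.040 with the replicate block and from -0.25 to 0.34 with single libraries left out, and Trbj1-3 at -0.0022 with DESeq2's size factors and from -0.24 to 0.27. The ranges were -0.31 to 0.013 for Trav3-3, -0.23 to 0.17 for Trbj1-4, -0.25 to 0.078 for Trbj1-5, -0.043 to 0.10 for Trdv1 and -0.11 to 0.058 for Trdv2-2. For the difference of effects of Trav14-1 the range was -0.53 to 0.071. The causes were not tested. Depth limits the J segments, most Trav segments and Trdv4, and short length also limits the J segments. Trdv4 was tested in KO against WT only in some of the other settings and called in none. Where more than 1 library remained per group, its edgeR adjusted p was 0.134 to 0.192.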
